A study of Capra hircus with 2 samples.

Results

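The candidate goat miRNAs described here are 94 sequences listed by the study, under names of the form novel_mir and a number, as predicted miRNAs of the goat mammary gland beside 346 conserved miRNAs, which makes 440 sequences in the lists used here. Every row with such a name was taken, any further candidate was not analysed here, and no value computed here chose the members. The study had itself predicted them from the reads of these same 2 libraries, so measured reads did shape the list. Small RNA was sequenced from mammary gland tissue of Xinong Saanen dairy goats in 1 library of the dry period and 1 library of peak lactation, and each library was made from the pooled tissue of 3 goats. The labels give 75 days after lambing to the dry period and 320 days to peak lactation, the study's text gives the days in the reverse order, and the groups used here follow the stage named in the sample titles. The labels describe no treatment, genotype or sorting. With 1 library per stage there was no replicate check, and every p-value compares these 2 libraries and not the stages.

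MicroRNAs are short RNAs cut from hairpin precursors, first by Drosha in the nucleus and then by Dicer in the cytoplasm. Both enzymes cut at set positions, so the reads of a miRNA usually start at one base, and a hairpin can leave reads from both of its arms. Bases 2 to 8, the seed, pair with messenger RNAs, so a shift of the 5′ end by a single base changes the seed. In the mammary gland, miRNAs take part in the cycles of growth, milk secretion and regression. The study predicted the candidates on the bovine genome.

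The candidates were 20 to 24 nt long, 36 of them 22 nt, and 49 were placed on the 5′ arm of their predicted hairpin. They began with U in 17.0% of cases and with A in 55.3%, against 44.8% and 30.1% of the conserved miRNAs. To show what the reads are read against, the sequences that carry most of the results are given first, with the seed in capitals. The first set holds the 9 candidates for which the study sequenced goat precursors.
novel_mir_19: aGAUAUUGcacgguugaucucu
novel_mir_12: uAAUACUGccugguaaugaugac
novel_mir_50: cAGGCUAGgagaaaugauugg
novel_mir_10: gAGGCGGGggucgcucucuuu
novel_mir_21: gGUUGAUCagagaacauacauu
novel_mir_51: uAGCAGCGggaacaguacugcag
novel_mir_16: aUCAUGUAugauacugcaaaca
novel_mir_35: gAAAAGUUcguuuggguuuuc
novel_mir_56: uACAGUGAccaggugacgacg

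Several candidates repeat most of a conserved miRNA on the study's own list. They are shown as pairs, candidate before conserved miRNA, because reads that hold only the shared bases cannot be told apart.
novel_mir_37: uAGCACCAucugaaaucgguuaua
miR-29a: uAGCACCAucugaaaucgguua
novel_mir_9: aAGGUAGAuagaacaggucuuguu
miR-1839: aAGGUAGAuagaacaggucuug
novel_mir_27: aCUGGACUuggagucagaagu
miR-378: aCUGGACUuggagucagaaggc
miR-200b: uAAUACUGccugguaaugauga
novel_mir_42: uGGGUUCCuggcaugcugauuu
miR-23b-5p: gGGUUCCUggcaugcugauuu
novel_mir_20: aACAUAGAggaaaauccacauu
miR-376d: aUCAUAGAggaaaauccacau

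A larger family of candidates repeats parts of miR-2284, a family with many members in ruminants. These members are shown because they differ from each other by a shift of the start or by a few bases.
miR-2284x: uGAAAAGUucguucggguuuuu
novel_mir_1: aAAAAGUUcguucggguuuuuc
novel_mir_57: cAAAAGUUcguucggguuuuu
novel_mir_17: aAAAGUUCguucggguuuuuca
novel_mir_65: gAAAGUUCguucggguuuuu
novel_mir_34: aAAAAGUUuguucggguuuua
novel_mir_38: aAAAAUUUguucggguuuuucu
novel_mir_79: aAAAAGUUcguuuggguuuuua
novel_mir_7: aGCCAAAAaguucguuuggguu

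The last set holds candidates made almost wholly of G and C, shown because they include most of those that were higher in the peak lactation library.
novel_mir_66: cGGGGCCGggggccgggcgc
novel_mir_69: cCCGGCGGcgggggcggucc
novel_mir_15: gGGGGGCCggcggcggcggcg
novel_mir_13: cGGCGGCGgcggcgcgcgcg
novel_mir_33: gAGGCGCCgccgcccccuccc

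Clean reads numbered 14851375 (dry period) and 15712891 (peak lactation), in 788915 and 1108514 distinct tags of 18 to 44 nt. Reads sharing the first 18 nt or more of a conserved miRNA were 61.1% of the dry period library and 14.4% of the peak lactation library, a log2 ratio of -2.08. The study's own count of reads matched to conserved miRNA precursors was also lower at peak lactation, but by less. The size of this shift thus depends on the counting. Levels are given as RPM, reads per 1000000 clean reads, and ratios per read of conserved miRNAs, which add 2.08 to each log2 value, are given beside the main ones. The tissue carried the epithelial miRNAs miR-200a, miR-200b, miR-200c, miR-141 and miR-205, whose summed level was 2573 RPM in the dry period against 1314 at peak lactation. Summed miR-143, miR-145 and miR-199a-3p, of smooth muscle and stroma, stood at 21809 and 6483 RPM, the 3 striated muscle miRNAs (nearly all miR-1) at 7240 and 3846, and the red blood cell miRNAs miR-451, miR-144 and miR-486 at 110 and 190. The 4 leukocyte miRNAs stood at 481 and 176 and the endothelial miR-126 at 113 and 67.6. In bulk tissue, fewer cells of a type and less RNA per cell cannot be told apart, and the part of these shifts in the results below was not tested.

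Each of the 94 candidates had at least 1 read identical to its listed sequence, but most had few. The study predicted the candidates from these same reads, so neither this nor the detection counts below are separate evidence for them. At 5 identical reads or more, the dry period library showed 67 candidates and the peak lactation library 46, with 38 shown by both and 19 by neither. Reads sharing the first 18 nt or more with a candidate, called anchored reads here, reached 5 for 90 candidates in the dry period against 69 at peak lactation. Reads holding the middle 14 bases at any position, called middle reads here, did so for 92 and 76. A count of 0 reads allows up to 0.202 RPM in the dry period and 0.191 RPM in peak lactation, which covers counting error only.

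Candidates took a small share of both libraries, and how much of it fell to sequences shared with conserved miRNAs depended on the counting. Of the 22911 reads identical to a candidate, 4841 belonged to the 12 that share 18 nt or more with a conserved miRNA. Identical reads summed to 14633 in the dry period against 8278 at peak lactation. Anchored reads, each tag counted once, summed to 198603 and 95305, and 84.8% of them were also anchored on a conserved miRNA. Without those, 27023 and 17595 reads remained, or 0.182% of all dry period reads (0.180% to 0.184%, 95% Wilson interval) and 0.112% of all peak lactation reads (0.110% to 0.114%). The log2 ratio of these shares was -0.70, a smaller fall than the -2.08 of the conserved miRNA reads. Both are pooled sums, and novel_mir_19 alone, at a log2 ratio of -0.54, had 22520 of the remaining candidate reads. Sequence by sequence the 2 lists fell alike, with median log2 ratios of -1.47 for candidates and -1.42 for conserved miRNAs.

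A run of 18 nt or more was shared with a conserved miRNA by 12 candidates, and 5 of these began with the same 18 nt. Novel_mir_37 is miR-29a, a repressor of collagen and of DNA methyltransferase messages, with 2 more bases at its 3′ end. Its anchored reads numbered 114957 in the dry period against 48292 at peak lactation, exactly those of miR-29a, of which only 0.0784% had the length of the listed candidate. Novel_mir_9 is likewise miR-1839 with 2 more bases, with 23629 and 9311 anchored reads, of which 1.75% had its length. Novel_mir_27 shares 20 nt with miR-378, which lies within the gene of the coactivator PGC-1β, and differs in its last base from a far more common form (183 reads hold the listed sequence and 31241 the form U21G). Novel_mir_12 is miR-200b, a keeper of epithelial identity that represses ZEB1 and ZEB2, with 1 base more. Its 11108 and 6058 anchored reads are those of miR-200b, but its own length of 23 nt made up 28.1% of them.

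In another 2 of the 12 the candidate differed from the conserved miRNA at or near the 5′ end. Novel_mir_42 starts 1 base before miR-23b-5p and shares 21 nt with it. Of the 506 reads holding its middle 14 bases, 63.4% (59.2% to 67.5%) started at the candidate's first base, while 36.0% of the middle reads of miR-23b-5p started at that miRNA's listed base. The candidate's start was the commoner one in both libraries, at 62.4% in the dry period against 67.7% at peak lactation. Novel_mir_20 shares 19 nt from the third base on with miR-376d, of the imprinted miR-376 cluster, and its own anchored reads numbered 113 in each library. Of its middle reads 98.2%, or 376, began at the listed base. But miR-376a, miR-376b and miR-376d hold the same middle 14 bases at the same position, so these reads can include theirs.

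The remaining 6 of the 12, novel_mir_1, novel_mir_17, novel_mir_28, novel_mir_34, novel_mir_57 and novel_mir_65, repeat miR-2284x or miR-2284m. The first 18 nt of novel_mir_17 are also the whole of miR-2284h, so its 1606 anchored reads are those of miR-2284h as well. These 6 belong to the largest group of candidates. Joined by identical runs of 12 bases on the same strand, 48 candidates fell into 9 groups, the largest of 22, and 37 were joined when runs on the opposite strand were also counted. These 37 make up the miR-2284-like group named below. Some, such as novel_mir_4, novel_mir_6 and novel_mir_95, belong to it only through opposite-strand runs. Of the 41 pairs of candidates that matched on opposite strands, the longest match was 19 bases, between novel_mir_6 and both novel_mir_28 and novel_mir_57. Of these, novel_mir_6 had 87 and 88 anchored reads, and novel_mir_28 and novel_mir_57 shared 21 and 6.

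Candidates also repeated each other. A run of 18 nt or more with another candidate was found for 28, 14 had the same first 18 nt as another, and 6 lay wholly inside another. The 94 sequences held 87 distinct starts of 18 nt and 69 distinct seeds. The seed AAAAGUU occurred in 10 candidates and in miR-2284j, miR-2284k and miR-2284m, and AAAGUUC in 5 candidates and in miR-2284a, miR-2284h and miR-2284u. In all, 19 candidates had the seed of a conserved miRNA.

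The candidates differed widely in how fixed their 5′ end was. A candidate was called fixed where 80% or more of its middle reads began at the listed base, with 20 such reads as the minimum. Middle reads can belong to another sequence with the same middle bases. For novel_mir_1, 34514 middle reads began at the listed base, while only 68 reads were anchored on it. By the 80% measure 35 of 75 candidates were fixed (46.7%), against 218 of 271 conserved miRNAs (80.4%). With only tags identical to the listed sequence where they overlap, it was 35 of 70 and 210 of 265. Both members were counted in the pairs novel_mir_3 and novel_mir_56, novel_mir_14 and novel_mir_62, novel_mir_23 and novel_mir_71, novel_mir_46 and novel_mir_55, and novel_mir_47 and novel_mir_94. The members of each pair had equal middle read counts at every start, and all were fixed. The median share at the listed base was 73.9% for candidates and 98.2% for conserved miRNAs. Among the candidates that belong neither to the miR-2284-like group nor to the pairs with conserved miRNAs, and hold under 85% G and C, 21 of 28 were fixed (75%). In the rest of the miR-2284-like group it was 9 of 27, among the 12 that share sequence with a conserved miRNA 5 of 12, and among candidates of 85% G and C or more 0 of 8. Of the 9 in the miR-2284-like group, novel_mir_11, novel_mir_46, novel_mir_47, novel_mir_55, novel_mir_68 and novel_mir_94 belong to it only through opposite-strand runs.

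**Figure D1:**
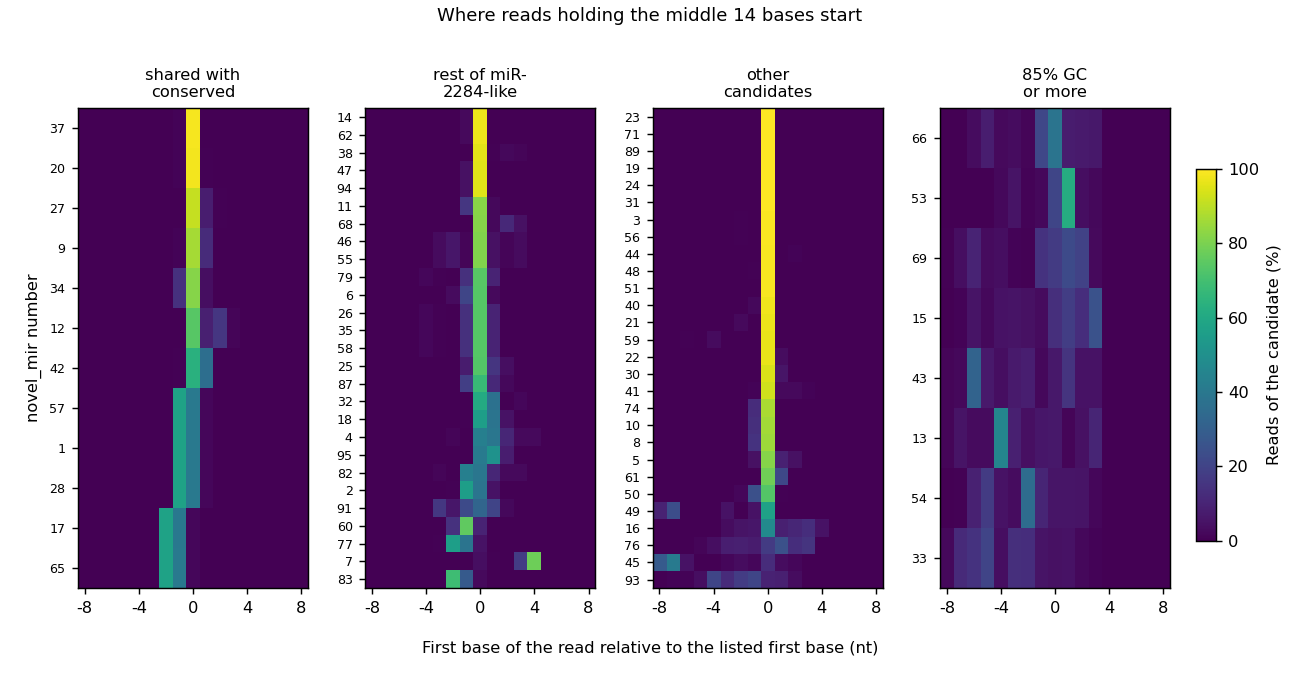
Share of the reads holding a candidate's middle 14 bases (colour, percent) by the distance in nt between the first base of the read and the listed first base, for the 75 candidates with 20 or more such reads, both libraries summed, in 4 panels by sequence set and sorted by the share at 0. Reads of most other candidates pile up at 0, members around miR-2284x peak 1 or 2 nt before the listed base, and reads of the 8 candidates with 85% G and C or more are spread over many starts.

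The candidates with the sharpest ends, among those with 100 middle reads or more, were novel_mir_19, novel_mir_24, novel_mir_31 and the pair novel_mir_3 and novel_mir_56, which are end variants of one sequence. Of the 22738 middle reads of novel_mir_19, 99.8% (99.7% to 99.8%) began at the listed base, at 99.7% in the dry period against 99.8% at peak lactation. Novel_mir_24 reached 99.7% of 581 reads and novel_mir_31 99.6% of 268. These shares lie above the conserved median.

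The lowest shares were those of novel_mir_65 and novel_mir_17 (each 1.92%), novel_mir_83 (2.58%), novel_mir_7 (3.53%) and novel_mir_33 (4.51%). Novel_mir_17 shares 20 nt and novel_mir_65 shares 19 nt with miR-2284x, and the commonest of their middle reads begins 2 nt before them and had 30142 reads in the dry period against 8839 at peak lactation. Of the middle reads of novel_mir_17, 57.8% began at that base. Novel_mir_7 begins 4 nt before the commonest start of its reads, which took 77.9% of them. Novel_mir_33, of 90.5% G and C, had its commonest start 5 nt upstream with only 20.5% of reads. For none of these 5 did any one start reach 80% of the reads.

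Some candidates were outnumbered by a form that differs from them at a single base. Reads holding the listed sequence were fewer than reads holding its commonest 1-base substitution for 20 candidates, and at least 10 times fewer for 14. Positions are counted from 1 at the 5′ end, with the listed base first. Novel_mir_45, novel_mir_49 and novel_mir_52 are 3 such forms of one sequence, at A13G, A11U and A15G. They are printed with the differing base in capitals, together with the common form as novel_mir_45 points to it.
novel_mir_45: aggucccuguucAggcgcca
novel_mir_49: aggucccuguAcgggcgcca
novel_mir_52: aggucccuguucggAcgcca
common form: aggucccuguucGggcgcca

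The common form was held by 3180 reads in the dry period against 54420 at peak lactation, which is 214 and 3463 RPM and a log2 ratio of 4.02 (6.10 per read of conserved miRNAs). The listed forms had 36, 15 and 6 reads, or 0.0625%, 0.0260% and 0.0104% of it. For scale, in 38 conserved miRNAs with 10000 identical reads or more, the 2496 possible 1-base forms had a median of 0.0325% of the reads of the listed sequence, with 5th and 95th percentiles of 0.00622% and 0.296%. The shares of the 3 candidates lie inside that range. The common form ends in CCA, the ending that mature tRNAs carry, and the share of reads in tags ending in CCA was 3.10% in the dry period against 7.67% at peak lactation. Among the middle reads of novel_mir_45, 76.6% were 25 nt or longer.

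Novel_mir_93 followed the same pattern, with 26 reads of the listed form and 10794 of the form U18C (4472 in the dry period against 6322 at peak lactation), a share of 0.241%. That common form also ends in CCA. Novel_mir_1, novel_mir_26, novel_mir_28, novel_mir_57, novel_mir_65 and novel_mir_83 stood 1 base from miR-2284x reads, at 0.0404% to 0.272% of the common form. Novel_mir_57, for instance, had 30 reads against 74213 for C1G. Other candidates outnumbered at least 10 times had larger shares of their common form, above the 0.296% that bounds the conserved range. These were novel_mir_27 (0.586%), novel_mir_58 (1.67%), novel_mir_60 (2.30%) and novel_mir_79 (5.26%). Whether these listed forms were present in the tissue or arose in sequencing was not tested.

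**Figure D2:**
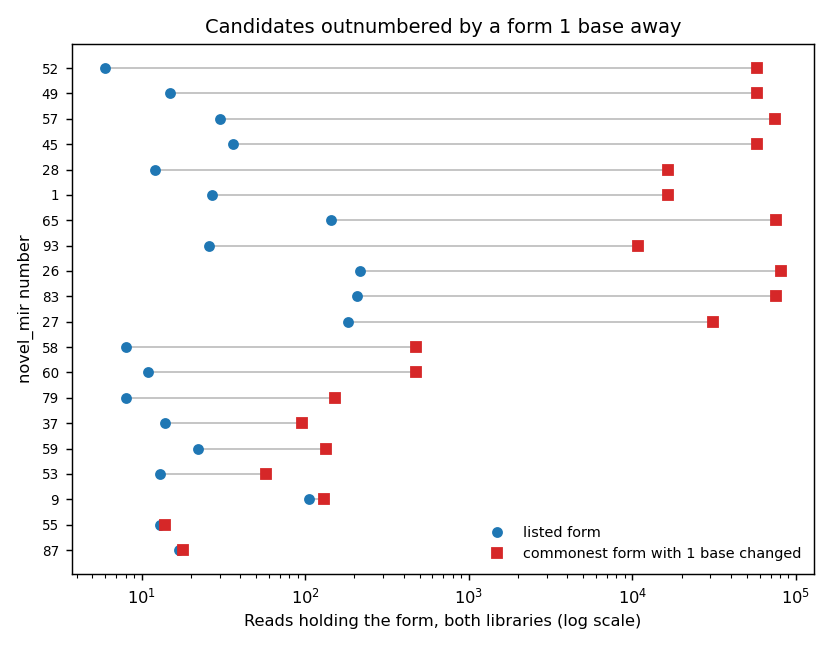
Reads holding the listed sequence (circles) and reads holding its commonest form with 1 base changed (squares) on a log axis, both libraries summed, for the 20 candidates in which the changed form had more reads. The gap is widest for novel_mir_52, with 6 and 57600 reads, and smallest for novel_mir_87 and novel_mir_55.

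For the 9 candidates with a goat precursor in the study's supplement, reads lying wholly inside the precursor were assigned to the listed sequence, the opposite arm or the rest. The listed arm gave 95.7% of the 50512 reads in all. Opposite-arm reads were found for 5 of the 9. The precursors of 4 candidates are printed because their arms differed most, with the listed sequence in capitals.
novel_mir_12: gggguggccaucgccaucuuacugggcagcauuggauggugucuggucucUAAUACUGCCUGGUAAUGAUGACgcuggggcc
novel_mir_16: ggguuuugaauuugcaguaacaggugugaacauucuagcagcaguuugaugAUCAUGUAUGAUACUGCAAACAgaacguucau
novel_mir_50: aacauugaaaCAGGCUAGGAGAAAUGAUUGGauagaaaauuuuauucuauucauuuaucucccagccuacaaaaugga
novel_mir_19: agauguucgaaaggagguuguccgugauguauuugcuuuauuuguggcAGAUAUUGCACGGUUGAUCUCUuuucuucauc

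On the precursor of novel_mir_12, 8095 reads in the dry period against 4300 at peak lactation came from the listed 3′ arm, and 1007 against 771 from the 5′ arm. The 5′ arm made up 12.5% of the reads, and its commonest tag, caucuuacugggcagcauugg with 790 reads, is the sequence known as miR-200b-5p. Novel_mir_16 had the largest opposite share, 26.8% of 421 reads, with 130 and 177 reads of the listed arm and 56 and 57 of the other, led by uuugcaguaacaggugugaacau with 37 reads. For novel_mir_50 it was 3.42% of 7213 reads, with 140 in the dry period against 107 at peak lactation, led by uauucauuuaucucccagccuac with 59 reads. These 3 hairpins left reads of both arms in both libraries.

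Novel_mir_51, whose sequence is the one known as miR-503 in rodents, had 8 opposite-arm reads of 1143 (0.700%), 7 in the dry period against 1 at peak lactation. Novel_mir_21 had 1 of 1383. None was found for novel_mir_10, novel_mir_19, novel_mir_35 and novel_mir_56, also when 1 mismatch was allowed. For novel_mir_19, 0 of 21611 reads allows a share of up to 0.0139%, for novel_mir_10, 0 of 4173 allows up to 0.0719%, and for novel_mir_56 and novel_mir_35, with 229 and 166 reads, the limits are 1.31% and 1.81%. The abundance of novel_mir_19 makes its limit the tightest, well under the share seen for novel_mir_51.

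**Figure D3:**
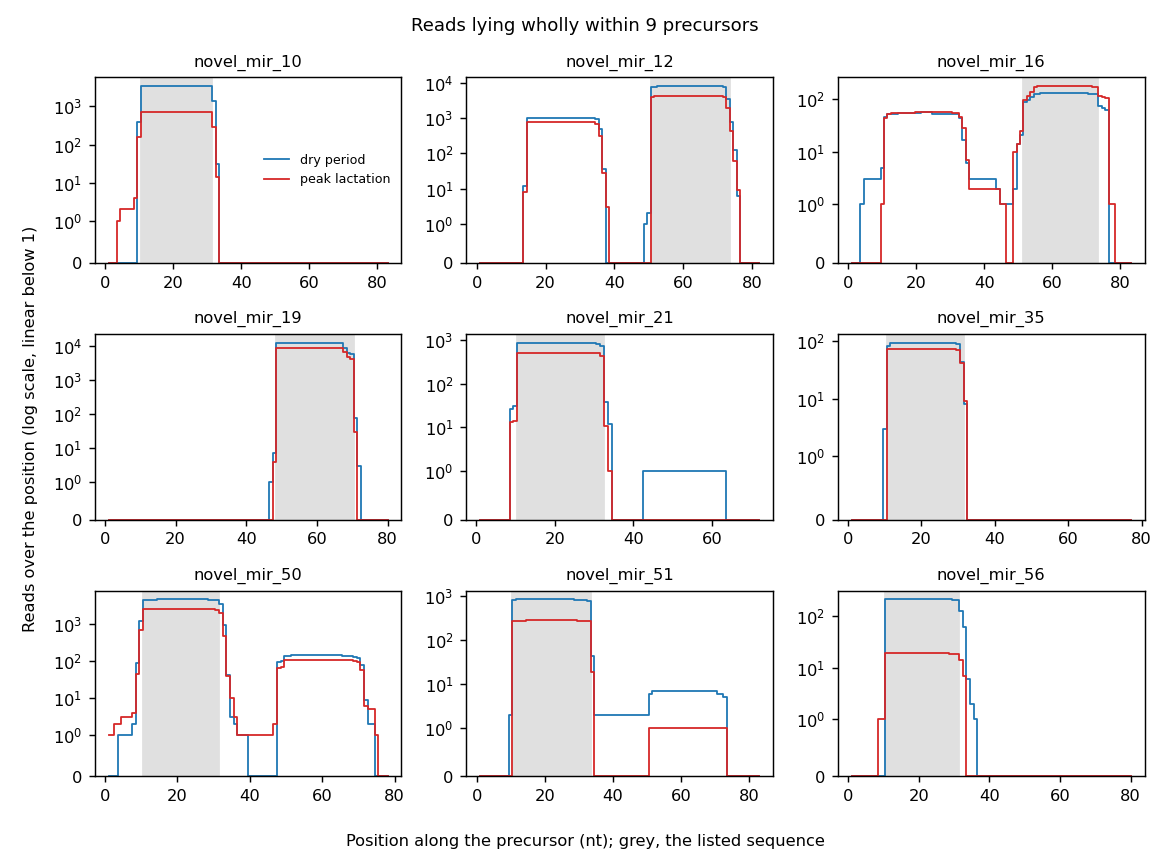
Reads over each position (log scale, linear below 1) of tags lying wholly within the 9 goat precursors, by position in nt from the precursor's first base, for the dry period and peak lactation libraries, with the listed sequence in grey. A block of opposite-arm reads stands apart from the grey for novel_mir_12, novel_mir_16 and novel_mir_50, a low one for novel_mir_51 and 1 read for novel_mir_21, and none for the other 4. Reads of the listed arm also run past the ends of the grey.

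Reads of these 9 candidates often ran past or stopped short of the listed 3′ end. For novel_mir_50 only 12.8% of anchored reads had the listed 21 nt, and the commonest tag was 1 base longer, with 2022 reads in the dry period against 1133 at peak lactation. For novel_mir_10 the listed length took 58.3% and for novel_mir_51 80.1%. Between 67.9% (novel_mir_12) and 96.2% (novel_mir_10) of anchored reads matched the precursor to their last base. Bases added at the 3′ end are a common modification of miRNAs, and a single A not in the precursor was found on 15.3% of the reads of novel_mir_12 and on 3.44% of those of novel_mir_19. A single U was found on 13.0% of the reads of novel_mir_12, and on 9.73% of those of novel_mir_35 against 3.24% with a single A.

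The comparison of stages asks which candidates differ between the dry period and peak lactation. It was made on anchored reads for the 64 candidates and 259 conserved miRNAs with 20 such reads or more, with the Audic-Claverie test of 2 counts, Benjamini-Hochberg adjusted over all 323, called at an adjusted p below 0.01 and a log2 ratio past 1. Lower at peak lactation were 35 of the 64 candidates (54.7%), higher 8 (12.5%), and 21 were not called. Over all sequences tested, 64.4% were lower and 3.41% higher, and over the conserved miRNAs alone 66.8% and 1.16%. The median log2 ratio was -1.47 for candidates and -1.42 for conserved miRNAs, or 0.61 and 0.67 per read of conserved miRNAs. On that scale 6 candidates were called lower and 25 higher, so the direction of most members depends on the scale.

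**Figure D4:**
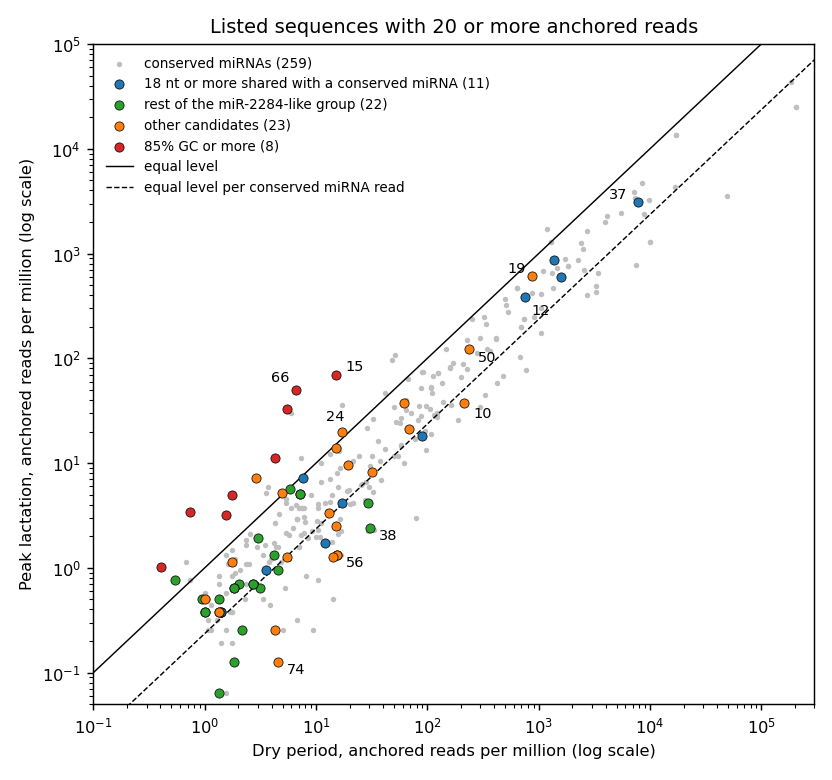
Anchored RPM in the dry period (x, log scale) and at peak lactation (y, log scale) for the 323 listed sequences with 20 anchored reads or more, with conserved miRNAs in grey, candidates coloured by sequence set and numbers giving some novel_mir names. The solid line marks equal levels and the dashed line equal levels per read of conserved miRNAs (log2 -2.08), and the 8 candidates with 85% G and C or more lie above the solid line.

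The calls per clean read divided by the 5′ end. Of the 34 tested candidates with a fixed 5′ end, 24 were lower and 0 higher, with a median log2 ratio of -1.77. Of the 30 without one, 11 were lower and 8 higher, with a median of -0.78. Conserved miRNAs with and without a fixed end had medians of -1.39 and -1.64, with 2 of 218 and 1 of 41 higher. All the candidates called higher were thus among those whose reads had no fixed start at the listed base. Of these 8, 7 held 85% G and C or more, a set in which 0 of 8 had a fixed end. The 5′ end and the base content can therefore not be told apart in this division. This division was noticed after the calls were made and has no test.

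Among the candidates of 85% G and C or more, 9 in all, 8 were tested, 7 were higher and 0 lower, with a median log2 ratio of 1.84 and a range of 1.04 to 2.91. These are not all separate sequences. Novel_mir_13 shares a run of 18 nt with novel_mir_43 and with novel_mir_54, which shares 14 nt with novel_mir_15. Novel_mir_53 and novel_mir_66 share 12 nt. Novel_mir_66 had 99 anchored reads in the dry period against 788 at peak lactation (log2 ratio 2.91, 95% counting interval 2.61 to 3.21, adjusted p = 3.88e-125). Novel_mir_69 had 82 and 512 (2.56, 2.23 to 2.90), and novel_mir_15 had 226 and 1097 (2.20, 1.99 to 2.40). Novel_mir_13 and novel_mir_33 rose less, with 26 and 77 reads (1.48) and 64 and 176 reads (1.38). The remaining called members were novel_mir_54 with 11 and 54 reads and novel_mir_43 with 23 and 50. Novel_mir_53, with 1.33 on 22 reads, was not called (adjusted p = 0.0779).

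The direction of the GC-rich candidates was the same per read of conserved miRNAs, at 4.65 for novel_mir_69. The reads of these 8 candidates were spread over starts and lengths, with 35.1% to 62.5% at 21 to 23 nt. The share of all clean reads in tags of 85% G and C or more was 0.497% in the dry period against 2.06% at peak lactation, a log2 ratio of 2.05. That shift moves with these members, and its part in their values was not tested. The eighth candidate called higher, novel_mir_76, holds 20% G and C, with 43 and 114 reads (log2 ratio 1.33, 0.82 to 1.83). Its commonest read, auaauuuacuuaauuccugcca with 52 reads in the dry period against 153 at peak lactation, starts 1 nt after the listed base and ends in CCA.

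Candidates of the group outside the pairs, the miR-2284-like family and the GC-rich sequences had a median log2 ratio of -1.82, with 14 of 23 lower and 1 higher. The most abundant, novel_mir_19, known in sheep as miR-3958-3p, had 13036 anchored reads in the dry period against 9484 at peak lactation (log2 ratio -0.54, -0.58 to -0.50), or 1.54 per read of conserved miRNAs. Novel_mir_21, known in sheep as miR-3959-5p, had 916 and 583 reads (-0.73, and 1.35 per conserved read). Novel_mir_50 had 3482 and 1920 (-0.94, and 1.14). None of these passed the fold threshold per clean read, and the sign of each depends on the scale.

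Novel_mir_10 was called lower, with 3165 reads in the dry period against 585 at peak lactation (-2.52, -2.64 to -2.39), and stayed lower per read of conserved miRNAs (-0.43). Novel_mir_51 was also called lower, with 1022 and 329 reads (-1.72), but was 0.37 above the conserved reads. The largest falls among candidates with 100 reads or more were those of novel_mir_38, of the miR-2284-like group, with 450 and 38 reads (-3.65, -4.12 to -3.17, adjusted p = 2.19e-95), and of the pair novel_mir_3 and novel_mir_56, which share 230 and 21 reads (-3.53, -4.17 to -2.90). Novel_mir_59, mostly alternating U and G, had 211 and 20 reads (-3.48), and novel_mir_34 had 179 and 27 (-2.81). All 5 were also lower per read of conserved miRNAs, by -1.56 for novel_mir_38 and -0.73 for novel_mir_34. The whole listed sequence of novel_mir_59 was held by only 22 and 0 reads, against 119 and 15 for its form A21U. Novel_mir_74, named here after its values were seen, had 67 reads in the dry period against 2 at peak lactation (-5.15, -7.04 to -3.26).

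A few candidates had nearly the same level per clean read in both libraries. Novel_mir_24, which shares 10 bases with miR-323, had 256 and 309 reads (0.19, -0.05 to 0.43). Novel_mir_30 had 224 and 217 (-0.13, -0.40 to 0.14), novel_mir_16 had 73 and 82 (0.09, -0.37 to 0.54) and novel_mir_20 had 113 and 113 (-0.08, -0.46 to 0.29). Per read of conserved miRNAs these 4 stood between 1.96 and 2.27 higher at peak lactation. Novel_mir_24 and novel_mir_30 were named here after their values were seen.

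In the miR-2284-like group apart from the pairs, 13 of 22 were lower and 0 higher, with a median of -1.52 and a range of -4.40 to 0.50. Both ends of that range, novel_mir_95 and novel_mir_4, belong to the group only through opposite-strand runs. Anchored reads of members with nearly the same bases did not move alike. Novel_mir_79 had 431 and 66 reads (-2.79, -3.16 to -2.42), while novel_mir_26 and novel_mir_35, which share their first 18 nt with each other and have the same seed as novel_mir_79, had 106 and 79 (-0.51, -0.92 to -0.09). The intervals do not overlap, although these cover counting error in 2 libraries only. Only 6 and 2 reads held the whole of novel_mir_79, against 135 and 17 for its form A22C. Its ratio is thus that of its first 18 nt and not of the listed sequence. Among the 12 that share sequence with a conserved miRNA, 8 of 11 tested were lower and 0 higher, with a median of -1.89 and a range of -2.81 to -0.08.

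**Figure D5:**
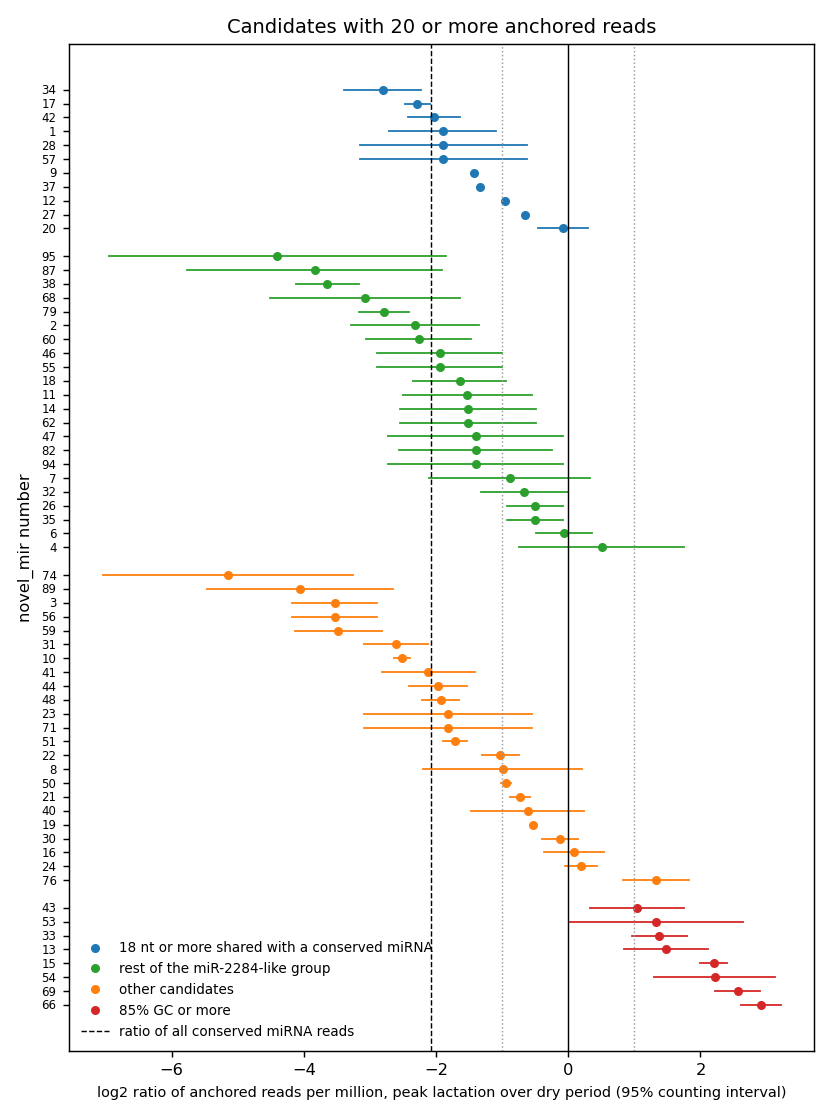
Log2 ratio of anchored RPM, peak lactation over dry period, for the 64 candidates with 20 anchored reads or more, by sequence set and sorted within each, with 95% counting intervals as lines. Dotted lines mark a log2 ratio of -1 and 1, the dashed line the ratio of all reads of conserved miRNAs, and the 8 candidates with 85% G and C or more are the only set wholly above 0.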

How the data were processed

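The authors deposited 1 table per library with the length, sequence and count of each distinct tag, made from Solexa small RNA reads after removal of low-quality reads, reads without an insert or with adaptor faults, poly(A) reads and reads under 18 nt. The deposited counts are raw and unaligned. Listed sequences and goat precursors came from the study's supplementary tables, of which no count was used. The authors predicted the candidates with Mireap on the bovine genome. Members and lists were chosen with earlier results of these data known. Named candidates were the 9 with sequenced precursors, those with sheep names, the 10 most abundant, those sharing 18 nt or more, and the 5 largest changes and 5 extreme start shares in each direction among those with 100 reads or more.

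Tags were matched as exact strings in Python 3.11.15: identical, anchored (first 18 nt or more) or holding the middle 14 bases, the last giving the start offset. One tag can serve several listed sequences. Levels are reads per 1000000 clean reads (RPM). Audic-Claverie p-values were computed with scipy 1.17.1 and intervals are 95% Wilson or counting intervals. TMM factors (edgeR 4.0.16) and DESeq2 1.42.0 size factors served only as other scalings. Counting and calls were checked on simulated data. Reads without molecular identifiers are not independent molecules, so intervals and floors cover counting error only.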

Additional observations from a re-analysis of the deposited data

How the results depend on the processing

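No paired analysis was possible because each stage has 1 library, and no library could be left out. The calls rest on the scaling. Against 35 candidates lower and 8 higher per clean read (81.4% of calls lower), there were 6 and 25 per read of conserved miRNAs (19.4%), 11 and 14 with TMM factors (44%) and 10 and 15 with DESeq2 size factors (40%). The median log2 ratio of candidates was 0.61, -0.17 and -0.045 under these scalings and that of conserved miRNAs 0.67, -0.12 and 0.01. Of the 64 candidates, the sign turned from fall to rise for 35, 15 and 19 under these scalings. Among the 27 whose values were followed (those with precursors or sheep names, the most abundant and the extremes), it turned for novel_mir_7, novel_mir_12, novel_mir_19, novel_mir_20, novel_mir_21, novel_mir_27, novel_mir_35 and novel_mir_50, which in this order stood at 1.20, 1.13, 1.54, 2.00, 1.35, 1.42, 1.58 and 1.14 per read of conserved miRNAs, at 0.41, 0.34, 0.76, 1.22, 0.56, 0.64, 0.79 and 0.36 with TMM, and at 0.54, 0.47, 0.88, 1.34, 0.69, 0.76, 0.92 and 0.48 with size factors. Per read of conserved miRNAs it also turned for 4 more of the 27, novel_mir_9 (0.66), novel_mir_37 (0.75, and 0.092 with size factors), novel_mir_51 (0.37) and novel_mir_71 (0.27).

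Counting only identical tags left 35 candidates tested, with 17 lower and 2 higher, fewer sequences being tested, and gave novel_mir_20 a log2 ratio of 0.077. A minimum of 100 anchored reads left 17 lower of 35. The other alternatives of counting, filter and test, among them counting each distinct 18-nt start once (27 lower and 8 higher, chosen after seeing the data), kept both counts within 1.5 times the main ones. With identical tags, 20 reads as the minimum detected 31 candidates in the dry period against 23 at peak lactation and 1 read detected 80 at peak lactation. With anchored tags, 20 reads detected 57 and 39. Counts of fixed 5′ ends ran from 25 at a 90% threshold to 35. Tags of 20 nt or more put 95.2% of precursor reads on the listed arm. Depth limits the 30 candidates with under 20 anchored reads, which have no ratio.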
